A study of Arabidopsis thaliana with 5 samples.

Results

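Roots of Arabidopsis thaliana kept at low magnesium for 4 d were compared with control roots of the same day, gene by gene. The comparison sets 1 library from plants supplied with 0.5 µM Mg beside 1 control library, out of 5 libraries in the series. All plants were of the strain given as Col-1 and had been grown for 5 weeks before roots were taken for total RNA. The labels do not give the Mg level of the control. Plants at 10 mM Mg gave a high Mg library on day 4 and another on day 7, and a second low Mg library, again at 0.5 µM, came from day 7. No 7-d control was used here. Values are FPKM, fragments normalised to transcript length and to the mapped fragments of each library. In whole roots, fewer cells of a type and less RNA per cell cannot be told apart. Nuclear genes with at least 5 FPKM in low Mg or control at 4 d entered, which were 15873 of the 33559 loci listed. A difference was expressed as log2((low Mg + 1)/(control + 1)), and a gene was called at a 2-fold difference on that scale, a log2 ratio of 1 or more or of -1 or less.

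Magnesium sits at the centre of the chlorophyll molecule, bridges the subunits of ribosomes and accompanies ATP in nearly every phosphate transfer. Roots take it up through channels of the MRS2 family and store it in vacuoles, and plants short of it accumulate sugar in their source leaves because export through the phloem slows. Mineral shortages are read in the root by separate regulators for iron, nitrate, phosphate, copper and zinc, each with its own uptake transporters, while early-response genes such as ZAT, WRKY and ERF transcription factors react within minutes to touch, wounding, cold or microbial signals.

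Each group is 1 library, so no replicate error, p-value or interval over plants exists for any ratio below, and a difference belongs to these libraries. A feature of the low Mg library and a feature of the control library cannot be told apart from the pair alone. Many genes are therefore given in all 5 libraries. Others are given only by their ratio or by the pair, and for those the reading across libraries is not shown. At the library sizes estimated from the value of 1 fragment, 5 FPKM on 1 kb of exon stood for about 54.7 fragments in the control and 64.1 in 4-d low Mg. The middle of the distribution was narrow: the 5th percentile of the log2 ratio was -0.53, the median -0.02 and the 95th percentile 0.57. Markers of root tissues fitted the root label, since 63 of 76 marker genes of hair cells, other epidermis, endodermis, vasculature, meristem and cap passed the filter, whereas 2 of 12 shoot and photosynthesis genes did and LHCB1.1 and LHCB2.1 were listed at 0 in both libraries. None of the 65 marker genes compared was called, where 3.83% of all genes compared were. Summed marker FPKM in control and in low Mg was 471 and 380 for hair cells, 845 and 988 for the Casparian strip endodermis, 349 and 410 for xylem, and 196 and 221 for dividing cells.

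Of the 15873 genes, 343 were higher in low Mg (2.16%) and 265 were lower (1.67%), 608 in all (3.83%). Every count of called list or family members is to be read beside these shares, at which a short list often has no called gene. The split of the called genes depends on one locus of 102 nt, AT2G01021, which held 82.4% of the summed nuclear FPKM in the control and 75.7% in low Mg. Rescaling to equal sums with that locus included moved the median log2 ratio to 0.45 and gave 859 higher and 146 lower. Without the locus the same rescaling gave 350 higher and 258 lower. The genes called were short and had few introns. Among protein-coding genes with at least 500 nt of exon, 106 of 270 higher genes (39.3%) and 58 of 186 lower genes (31.2%) had no intron, beside 12.5% of the 15329 such genes compared. Their median exon lengths were 1275 nt and 1240.5 nt, beside 1755 nt. Just inside the threshold lay the peroxidase gene Prx37 (log2 ratio 1.01) and the sulfate reduction gene APR3 (1.01), and just outside it the alcohol dehydrogenase ADH1 (1.00) and bZIP1 (0.99). On the low side the sulfate-activating gene APS4 (-1.01) and the peptide gene CLE5 (-1.01) lay inside, and c-NAD-MDH2 (-0.99) and the co-chaperone Fes1A (-0.98) outside.

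**Figure D1:**
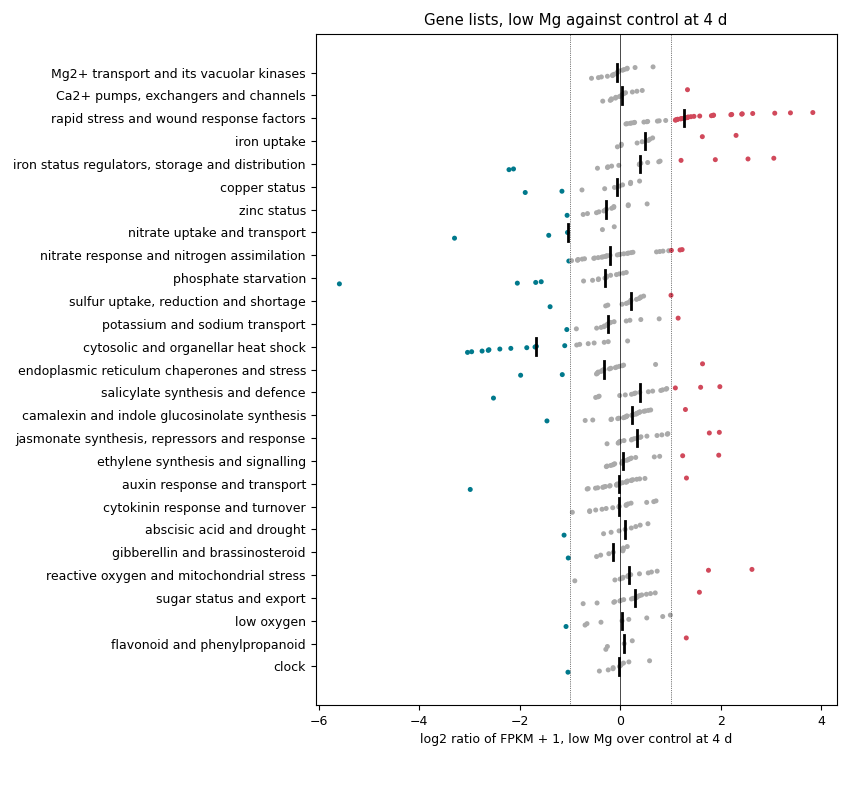
Log2 ratio of low Mg over control at 4 d (x axis, FPKM with a pseudocount of 1) for the genes of 27 lists; each point is 1 gene, red at 1 or more, blue at -1 or less, grey between, and the black bar is the list's median. The rapid stress and wound list (median 1.26) and the heat shock list (median -1.68) stand farthest from 0, while the Mg2+ transport list (median -0.06) has every point between the dotted 2-fold lines.

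Genes of Mg2+ transport differed little between the libraries, as did most genes compared. The list holds the MRS2 channels, the vacuolar exchangers MHX, CAX1 and CAX3, the CBL and CIPK calcium-sensor kinases that direct Mg2+ into the vacuole, and the cation channels TPC1 and CNGC10. None of 18 members compared was called, beside 3.83% of all genes, so a list of this size would often have no called gene. Their log2 ratios ran from -0.57 to 0.65 with a median of -0.06, beside -0.02 over all genes. MRS2-4, an MRS2 channel of inner membranes, stood at 21.4 FPKM in the control, 19.1 in 4-d low Mg, 22.8 in 4-d high Mg, 16.3 in 7-d low Mg and 18.9 in 7-d high Mg. MRS2-7, a channel linked to growth at low Mg, stood at 12.04, 11.4, 14.99, 12.7 and 12.05 FPKM in the same order. That order is kept wherever all 5 values are given below. For MRS2-4 both values of the pair lay within the span of the other 3 libraries, and for MRS2-7 4-d low Mg was the lowest library by a narrow margin. MRS2-1 (-0.16), MRS2-2 (-0.26), MRS2-3 (-0.03), MRS2-5 (0.08), MRS2-10 (0.14) and MRS2-11 (-0.38) were not called either, while MRS2-6 was listed at 0 in 4 libraries and did not pass the filter. The H+-coupled Mg2+ exchanger MHX had a log2 ratio of -0.07. CIPK23, a kinase of potassium and nitrate transport, had the highest ratio (0.65) at 73.4, 116, 108, 212 and 189 FPKM, with the control lowest of the 5. CAX3, a vacuolar Ca2+ exchanger, had the lowest ratio (-0.57) at 11.5, 7.41, 2.49, 7.14 and 3.06 FPKM, with the control highest. CAX1 was at -0.44, CBL2 at 0.29, CBL3 at -0.05, CIPK3 at -0.05, CIPK26 at 0.04, TPC1 at 0.13 and CNGC10 at -0.12, and CIPK9 stayed below the filter at 0.713 and 0.780 FPKM.

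Early-response genes were higher in 4-d low Mg. Of 37 compared genes of rapid stress and wound response, 25 were called higher and 0 lower, beside 2.16% of all genes. The remaining 12 also had ratios above 0, so all 37 lay above 0, with a median of 1.26. Low Mg at 4 d was the highest of the 5 libraries for 35 of the 37 genes and for all 25 called, whereas it was the highest library for 16.4% of all long coding genes and for 61.5% of those called higher. The exceptions were EXO and MYB44, which were highest in 7-d low Mg. The list was drawn up with earlier results of these libraries known, so its counts describe it and no more.

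**Figure D2:**
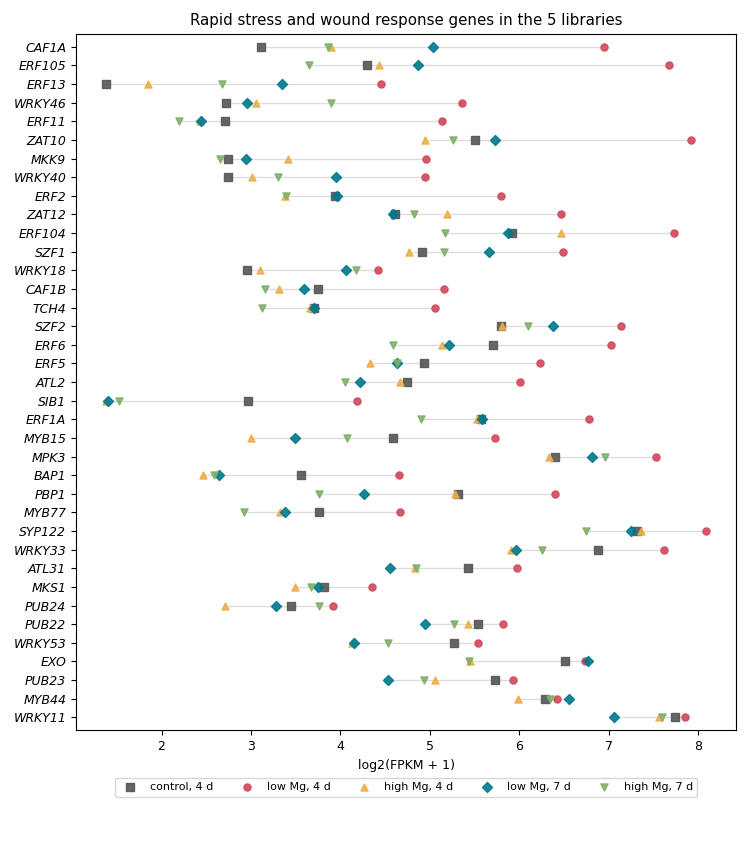
Level of the 37 compared genes of rapid stress and wound response, log2(FPKM + 1) on the x axis, with 1 symbol per library and genes ordered by the ratio of low Mg to control at 4 d from CAF1a (3.83) at the top to WRKY11 (0.11). The red circles of 4-d low Mg lie at the right end of the row for 35 genes, and the 3 libraries of high Mg and 7 d mostly lie around the grey square of the control.

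CAF1a (AT3G44260, TAIR10.1 chr3:15952008-15953346), a deadenylase that shortens mRNA tails, had the largest ratio among coding genes with a symbol, at least 500 nt of exon and values above 0 in both libraries. Its FPKM was 7.65 in the control, 122 in 4-d low Mg, 13.9 in 4-d high Mg, 31.7 in 7-d low Mg and 13.6 in 7-d high Mg, a log2 ratio of 3.83 from about 112 fragments in the control. Low Mg was the higher library on both days. Its paralog CAF1B stood at 12.5, 34.7, 8.96, 11.1 and 7.94 FPKM (1.41).

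Ethylene response factors, transcription factors that bind the GCC-box and act in wound and defence signalling, made up the largest group of the list. ERF105 (AT5G51190, chr5:20800473-20801437) stood at 18.6, 204, 20.7, 28.2 and 11.6 FPKM, a log2 ratio of 3.39. The 4 libraries other than 4-d low Mg thus fell between 11.6 and 28.2 FPKM. ERF13 stood at 1.602, 20.9, 2.61, 9.14 and 5.37 FPKM (3.07), and ERF11 at 5.55, 34.2, 4.39, 4.41 and 3.59 FPKM (2.43). ERF104, a target of the kinase MPK6, stood at 59.5, 212, 87.5, 57.6 and 35.0 FPKM (1.81). ERF2 (1.86), ERF6 (1.33), ERF5 (1.29) and ERF1A (1.1995) were called as well. Over the whole family of named ERF and DREB genes, 8 of 42 were higher and 0 lower, beside 2.16% and 1.67% of all genes. The family's median was 0.15. The family thus held called members beside many near 0. The cold regulators CBF1, CBF2 and CBF3 stayed under the filter, at 3.28, 1.49 and 0.317 FPKM in low Mg and 0.120, 0 and 0.128 FPKM in the control.

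Zinc-finger factors of the ZAT type and some WRKY factors were among the higher genes. ZAT10, annotated as STZ, a C2H2 repressor of salt and cold responses, stood at 44.5, 242, 29.8, 52.2 and 37.4 FPKM, a log2 ratio of 2.42. ZAT12 (1.85), ZAT6 (1.74) and ZAT11 (1.07) completed 4 of the 7 ZAT and AZF genes compared, with 0 lower. WRKY46, a factor of basal defence and drought, stood at 5.61, 40.1, 7.35, 6.78 and 13.9 FPKM (2.63), and WRKY40, a repressor of defence, at 5.70, 29.8, 7.04, 14.4 and 8.90 FPKM (2.201). In both, 4-d low Mg was at least 2-fold above each of the other 4 libraries. Among 49 WRKY genes compared, 6 were higher and 1 lower, beside 2.16% and 1.67% of all genes. The other higher ones were WRKY18 (1.47), WRKY70 (1.598), WRKY59 (1.09) and WRKY30 (1.03), and the lower one was WRKY29 (-1.10). The median was 0.16 over the WRKY family and 1.07 over the ZAT and AZF genes. Of the WRKY genes on the rapid stress list, WRKY33 (0.74), WRKY53 (0.27) and WRKY11 (0.11) were not called. The kinase genes MKK9 (2.22) and MPK3 (1.13), of a MAP kinase cascade, were both higher, at 5.68 and 30.0 FPKM and at 83.6 and 184 FPKM.

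Calcium-binding proteins were among the higher genes too. Of 9 compared calmodulin-like genes, 3 were higher, beside 2.16% of all genes, and all 3 were highest in 4-d low Mg. CML37, a Ca2+ sensor of herbivory defence, stood at 5.75, 38.1, 4.50, 1.71 and 4.18 FPKM (2.54). TCH2, a touch-induced Ca2+ sensor, stood at 36.9, 86.4, 57.3, 32.8 and 36.4 FPKM (1.203). Genes without a symbol whose annotation names EF-hands were added after their values were seen: AT4G27280 stood at 101, 408, 92.4, 120 and 57.0 FPKM (2.01), and AT3G29000 at 13.3, 100.4, 10.14, 10.46 and 8.52 FPKM (2.83). Over all 57 genes annotated as EF-hand or calmodulin-like proteins, 8 were higher and 1 lower, with a median of 0.12. Ca2+-dependent protein kinases had 0 of 18 called, and of 16 Ca2+ pumps, exchangers and channels only the annexin ANN4 was called (1.34), from 1.86 FPKM in the control and 6.22 in low Mg beside 37.6, 19.4 and 34.5 in the other libraries. Its ratio was 0.71 with a pseudocount of 5.

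Other single genes high in low Mg had the same shape across libraries. DIC2, a mitochondrial dicarboxylate carrier, stood at 14.7, 95.7, 19.3, 11.1 and 10.2 FPKM (2.62). RTFL12, a small peptide of the ROTUNDIFOLIA family, stood at 4.79, 53.3, 11.4, 15.8 and 3.44 FPKM (3.23). NUDT4 (2.31), a nudix hydrolase, and FBS1 (2.28), an F-box protein of stress responses, were at 9.22 and 49.8 FPKM and at 4.77 and 27.1 FPKM. PGIP1, an inhibitor of fungal pectin-degrading enzymes, stood at 37.2, 222, 63.1, 33.2 and 13.4 FPKM (2.55). In all of these, 4-d low Mg was the highest library. The most abundant gene of this kind, AT4G33720, encodes a CAP-domain secreted protein and was added after its values were seen. It stood at 584 FPKM in the control, 5229 in 4-d low Mg, 1104 in 4-d high Mg, 1176 in 7-d low Mg and 815 in 7-d high Mg (3.16). Abundant genes that 4-d high Mg shared in part were PDF2.1, a defensin, at 122, 467, 432, 22.9 and 31.5 FPKM (1.93), and CLE1, a signalling peptide of nitrogen status, at 50.1, 188, 143, 42.0 and 36.7 FPKM (1.88). In these genes the 2 libraries of the Mg treatments at 4 d were close to each other.

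Promoters of the higher genes held the W-box, the site bound by WRKY factors, in a larger share than those of all genes compared. The letters searched were TTGACC and TTGACT on both strands, in the 250 bases before and 50 after the annotated start of protein-coding genes. The W-box was found in 145 of 318 higher genes (45.6%) and in 83 of 233 lower genes (35.6%), beside 33.9% of all 15538 promoters. In the 25 called genes of the rapid stress list the share was 40.0%. The CAMTA core, CGCGT or CCGCG, a site of calmodulin-binding factors, was found in 14.8% of higher, 13.7% of lower and 11.9% of all promoters. In the 25 called genes of the rapid stress list its share was 4.0%. Site II, TGGGCC, common in promoters of housekeeping genes, was found in 5.66% of higher and 10.3% of lower genes, beside 19.3% of all. The TATA box, TATAAA, was found in 61.9% of higher and 60.5% of lower genes, beside 52.5%. These shares come from 16 motifs searched and carry no test, and a match is not a bound site. The 3 promoters below are from higher named genes with large ratios whose 250 upstream bases hold a W-box, shown 5′ to 3′ on the gene's strand with W-box matches of either strand in capitals, from the RefSeq TAIR10.1 genome. They lie at chr4:12686209-12686458 (DIC2, plus strand), chr5:2132100-2132349 (PGIP1, plus) and chr1:9956981-9957230 (ERF11, minus).
DIC2: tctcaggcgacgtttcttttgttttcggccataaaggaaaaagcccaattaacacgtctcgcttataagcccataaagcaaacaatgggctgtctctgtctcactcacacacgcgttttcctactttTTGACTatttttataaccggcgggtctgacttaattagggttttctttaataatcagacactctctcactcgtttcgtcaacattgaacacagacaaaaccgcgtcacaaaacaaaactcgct
PGIP1: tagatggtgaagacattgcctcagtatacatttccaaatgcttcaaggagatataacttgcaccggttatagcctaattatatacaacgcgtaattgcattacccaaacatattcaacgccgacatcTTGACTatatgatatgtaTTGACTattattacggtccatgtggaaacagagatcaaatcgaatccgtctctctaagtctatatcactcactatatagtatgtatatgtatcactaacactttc
ERF11: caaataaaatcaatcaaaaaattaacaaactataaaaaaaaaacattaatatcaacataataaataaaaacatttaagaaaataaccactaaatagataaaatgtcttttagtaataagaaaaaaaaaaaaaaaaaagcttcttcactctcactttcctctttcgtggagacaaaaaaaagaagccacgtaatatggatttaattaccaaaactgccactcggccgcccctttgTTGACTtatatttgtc
The PGIP1 promoter held 2 matches, 123 and 105 bases before the start, and the other promoters held 1 each, at 123 (DIC2) and 16 bases (ERF11).

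Defence and hormone genes showed smaller differences than the early-response genes. Of 19 compared genes of salicylate synthesis and defence, 3 were higher and 1 lower, beside 2.16% and 1.67% of all genes. The median was 0.39. WRKY70, a salicylate-induced factor, stood at 11.8, 37.9, 5.74, 7.06 and 4.23 FPKM (1.598), and SARD1, an activator of salicylate synthesis, at 11.9, 26.51, 5.25, 11.7 and 21.6 FPKM (1.096). The salicylate synthase ICS1, at 10.6 and 19.8 FPKM (0.84), and ALD1 (0.81) of pipecolate synthesis were not called, and PR2, a glucanase annotated as BGL2, was lower at 5.53, 0.135, 0.0721, 0.120 and 0.147 FPKM (-2.52). PR2 was thus above 1 FPKM in the control library only. The jasmonate list had 2 of 19 higher, beside 2.16% of all genes. They were the repressor genes JAZ1 at 26.1, 105, 66.7, 87.4 and 132 FPKM (1.97) and JAZ5 (1.77). JAZ6 (0.95), MYC2 (0.93) and ORA59 (0.83) fell short. Both SARD1 (0.90) and JAZ5 (0.88) fell short of 2-fold with a pseudocount of 5. For JAZ1 the control was the lowest library and 4-d low Mg was not the highest.

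Ethylene genes had 2 of 21 higher, beside 2.16% of all genes. ACS6, which makes the ethylene precursor, stood at 10.0, 41.9, 11.1, 11.8 and 9.50 FPKM (1.959), and EDF4, annotated as RAV1, at 34.5, 83.0, 76.0, 91.1 and 55.6 FPKM (1.24). ACS6 was high in 4-d low Mg alone, whereas EDF4 was low in the control. Camalexin and indole glucosinolate genes had IGMT1, a methyltransferase, higher (1.30) and CYP82C2 lower (-1.46) among 26. Auxin genes had AIR1, an auxin-induced root gene, higher (1.32) and EXPA17, an expansin of lateral root emergence, lower (-2.99) among 28. Over all genes, 2.16% were higher and 1.67% lower, and 0 of 16 cytokinin genes were called. AIR1 stood at 245, 611, 4037, 381 and 1392 FPKM, so its value in 4-d low Mg was below both high Mg libraries. EXPA17 stood at 129, 15.4, 24.5, 17.37 and 79.5 FPKM, highest in the control and next highest in 7-d high Mg.

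Heat shock genes were lower in low Mg, and the control was the library that stood apart. Of 18 compared genes, 11 were called lower and 0 higher, beside 1.67% of all genes called lower, and the median was -1.68. The control was the highest of the 5 libraries for 17 of the 18, beside 27.6% over all long coding genes and 88.2% over the long coding genes called lower. The exception was HSFA4A, at 9.32 and 10.4 FPKM. GolS1, which makes galactinol, was 29.4 FPKM in the control and 28.9 in 7-d high Mg, beside 13.1, 8.36 and 6.11 in 4-d low Mg, 4-d high Mg and 7-d low Mg.

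HSP70 (AT3G12580, chr3:3991117-3993886), a cytosolic chaperone, stood at 287, 34.0, 17.2, 1.63 and 2.03 FPKM, a log2 ratio of -3.04. HSP90.1, its partner chaperone, stood at 209, 26.04, 17.37, 0.719 and 2.26 FPKM (-2.96). MBF1C, a co-activator of thermotolerance, stood at 371, 59.2, 58.7, 5.90 and 11.4 FPKM (-2.63). For these genes the control was at least 6-fold above 4-d low Mg, low and 4-d high Mg were within 2-fold of each other, and both 7-d libraries were lower still. HSFA2, the amplifying heat shock factor, was at 11.8, 1.42, 1.47, 0.212 and 0.323 FPKM (-2.40), and small chaperones HSP17.4 (-2.75) and HSP17.6A (-1.86), the disaggregase HSP101 (-1.67), FKBP65 (-2.62), HOP3 (-2.18) and HSA32 (-1.70) were called too. With a pseudocount of 5, HSA32 (-0.97) and GolS1 (-0.93) fell short of 2-fold, as GolS1 did (-0.65) with sums made equal including AT2G01021. Members not called were BAG6 (-0.87), ROF1 (-0.81), HSFB2B (-0.64), CLPB4 (-0.52), HSFA7A (-0.32), DREB2A (-0.24) and HSFA4A (0.14).

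**Figure D3:**
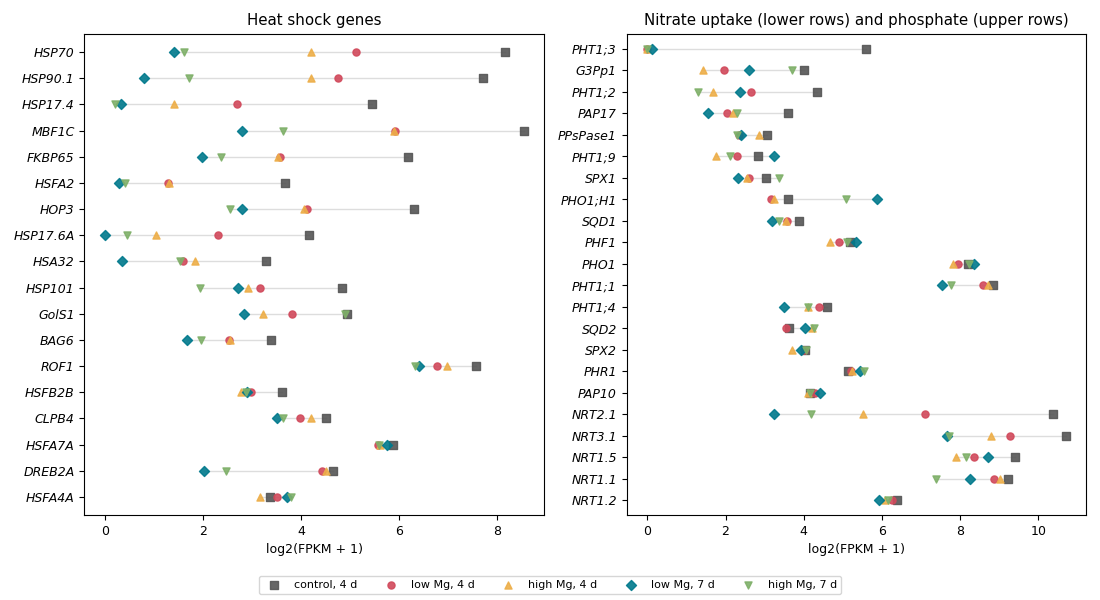
Levels of heat shock genes (left) and of nitrate uptake and phosphate starvation genes (right), log2(FPKM + 1) on the x axis, 1 symbol per library. The grey square of the control lies at the right end for 17 of 18 heat shock genes and all 5 nitrate genes, and PHT1;3 is listed at 47.2 FPKM in the control beside 0 in low Mg and 4-d high Mg.

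Chaperones of the endoplasmic reticulum differed less. Of 19 compared, TIN1 (-1.98) and ERDJ3A (-1.16) were lower and BIP3 was higher (1.64) from 2.14 to 8.77 FPKM. Over all genes, 1.67% were lower and 2.16% higher. The list's median was -0.32. With a pseudocount of 5, BIP3 (0.95) and ERDJ3A (-0.81) fell short of 2-fold, as ERDJ3A did (-0.74) with sums made equal including AT2G01021. The abundant chaperone genes BIP1 (-0.45), BIP2 (-0.44), CNX1 (-0.47) and HSP90.7 (-0.39) were not called. Genes whose annotation names HSP20, DnaJ or heat shock, a group added after the values were seen, had 14 of 141 lower, 0 higher and a median of -0.07, so the lower members were a minority of that wider group. Among them the small heat shock gene AT5G51440 stood at 112, 19.4, 19.8, 0 and 0.543 FPKM (-2.47).

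Promoters of lower genes held the 3-unit heat shock element, the binding site of heat shock factors, in 13 of 233 (5.58%), beside 2 of 318 higher genes (0.629%) and 0.56% of all 15538. The letters were GAA, TTC and GAA with 2 bases of any kind between neighbours, or TTC, GAA and TTC spaced in the same way, on both strands. The 2-unit form, GAA and TTC with 2 bases between them, overlaps with both. The 2-unit form was found in 18.0% of lower, 18.6% of higher and 11.2% of all promoters. Of the 11 called heat shock genes, 5 held the 3-unit element. The 3 promoters below are those of the lower named genes that hold it within 250 bases upstream, given as above with the element in capitals, at chr3:16984868-16985117 (HSP17.4, minus strand), chr2:11135374-11135623 (HSFA2, plus) and chr2:19370479-19370728 (GolS1, minus).
HSP17.4: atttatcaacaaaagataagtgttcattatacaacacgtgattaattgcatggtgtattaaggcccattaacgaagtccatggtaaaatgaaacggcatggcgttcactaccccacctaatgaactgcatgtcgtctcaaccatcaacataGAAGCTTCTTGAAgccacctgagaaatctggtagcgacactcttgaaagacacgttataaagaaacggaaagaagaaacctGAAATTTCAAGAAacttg
HSFA2: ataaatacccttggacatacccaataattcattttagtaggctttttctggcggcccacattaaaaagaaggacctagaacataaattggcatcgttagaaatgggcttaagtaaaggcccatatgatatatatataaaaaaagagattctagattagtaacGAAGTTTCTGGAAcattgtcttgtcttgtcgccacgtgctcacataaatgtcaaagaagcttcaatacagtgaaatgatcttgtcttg
GolS1: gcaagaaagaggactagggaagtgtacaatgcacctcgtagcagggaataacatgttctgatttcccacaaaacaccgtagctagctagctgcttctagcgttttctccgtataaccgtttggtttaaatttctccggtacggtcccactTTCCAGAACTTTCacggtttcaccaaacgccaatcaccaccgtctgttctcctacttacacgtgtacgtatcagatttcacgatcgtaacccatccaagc
HSP17.4 held 2 elements, 99 and 18 bases before the start, HSFA2 held 1 at 88 bases and GolS1 held 1 at 100 bases.

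Nitrate uptake genes had their highest values in the control. Of 5 compared, 3 were lower and 0 higher, beside 1.67% and 2.16% of all genes. The control was the highest library for all 5, beside 27.6% over all long coding genes and 88.2% over those called lower. NRT2.1, the high-affinity nitrate transporter, stood at 1341 FPKM in the control, 135 in 4-d low Mg, 44.6 in 4-d high Mg, 8.37 in 7-d low Mg and 17.36 in 7-d high Mg (-3.30). NRT3.1 (annotated as WR3), the partner protein NRT2.1 needs, stood at 1663, 619, 441, 203 and 210 FPKM (-1.42), and NRT1.5, which loads nitrate into the xylem, at 679, 327, 238, 421 and 281 FPKM (-1.05). Both ratios fell short of 2-fold when sums were made equal with AT2G01021 included, at -0.94 and -0.57. The dual-affinity transporter and nitrate sensor NRT1.1 (-0.36) and NRT1.2 (-0.12) were not called. DUR3, a urea transporter of nitrogen-poor roots, was lower at 22.04, 4.55, 5.01, 1.62 and 1.19 FPKM (-2.05).

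Genes acting after uptake went both ways. Of 31 compared genes of nitrate response and nitrogen assimilation, 3 were higher and 1 lower, beside 2.16% and 1.67% of all genes. The median was -0.21. NIA2, a nitrate reductase, stood at 83.9, 171, 124, 88.1 and 60.3 FPKM (1.02). GDH1, a glutamate dehydrogenase, stood at 55.6, 128, 101, 192 and 102 FPKM (1.19), and BT2, a scaffold protein of nitrate response, at 44.1, 105, 113, 346 and 249 FPKM (1.23). For GDH1 and BT2 the control was the lowest library, while NIA2 was highest in 4-d low Mg. G6PD3, a plastid supplier of reducing power, was lower (-1.02). With a pseudocount of 5, NIA2 (0.98) and G6PD3 (-0.96) fell short of 2-fold, and G6PD3 did so (-0.55) with sums made equal including AT2G01021.

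Phosphate starvation genes had 4 of 17 lower and 0 higher, beside 1.67% and 2.16% of all genes, with a median of -0.31. G3Pp1, a glycerol-3-phosphate transporter, stood at 15.1, 2.90, 1.67, 5.06 and 11.97 FPKM (-2.05), and PAP17, an acid phosphatase, at 11.2, 3.096, 3.55, 1.94 and 3.93 FPKM (-1.57). The phosphate transporter PHT1;2 stood at 19.1, 5.26, 2.22, 4.16 and 1.46 FPKM (-1.68), and PHT1;3 was listed at 47.2, 0, 0, 0.0922 and 0 FPKM. PHT1;1, PHT1;2 and PHT1;3 are neighbouring, near-identical genes among which fragments can be split, so the last 2 are uncertain, and PHT1;1 stood at 462 and 382 FPKM (-0.27). The starvation markers SPX1 (-0.44), PHO1;H1 (-0.44) and SQD2 (-0.08) and the regulator PHR1 (0.06) were not called, and IPS1, SPX3 and MGD3 stayed under the filter.

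Iron genes were called in both directions, with storage genes higher and the regulator bHLH39 lower. Roots of Arabidopsis reduce iron with FRO2, import it with IRT1, store it in ferritins and vacuoles, and switch uptake on through bHLH factors including bHLH39. VTL1 (AT1G21140, chr1:7404328-7405426), a vacuolar iron transporter-like protein, stood at 10.3, 92.8, 71.7, 46.6 and 18.9 FPKM (3.06), and VTL2 (AT1G76800) at 6.85, 44.7, 34.8, 47.1 and 8.61 FPKM (2.54). FER1, the main root ferritin, stood at 80.1, 300, 161, 218 and 102 FPKM (1.89). In these genes the control was the lowest library and 7-d high Mg the next lowest. VTL5 (0.77), FER3 (0.41) and FER4 (0.38) were not called. FRD3, which loads citrate for iron into the xylem, stood at 9.38, 22.99, 22.5, 27.5 and 12.3 FPKM (1.21).

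Uptake genes had 2 of 10 higher and 0 lower, beside 2.16% and 1.67% of all genes, with a median of 0.50. IRT1, the root iron importer, stood at 25.5, 81.0, 185, 195 and 60.0 FPKM (1.63), and CYP82C4, of iron-mobilising coumarin synthesis, at 1.66, 12.1, 24.4, 23.53 and 7.06 FPKM (2.30). FRO2 was not called at 13.9, 22.3, 58.2, 84.3 and 25.97 FPKM (0.64). In these genes the control was lowest and the low Mg library at 4 d stood between it and 4-d high Mg. NRAMP1 (0.59), MTP3 (0.56), FPN2 (0.43), BGLU42 (0.33), ABCG37 (0.02), the proton pump AHA2 (0.01) and the coumarin gene F6'H1 (-0.06) were not called, and IRT2, MYB72 and MYB10 stayed under the filter.

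The regulator bHLH39 was lower, at 19.6, 3.43, 10.0, 12.4 and 4.80 FPKM (-2.22), with 4-d low Mg the lowest library. Its relatives bHLH38, bHLH100 and bHLH101 stayed under the filter, at 3.95 and 1.26, 1.76 and 0.136, and 0.746 and 0.610 FPKM in control and low Mg. OPT3, a phloem transporter of iron and copper, stood at 21.6, 4.18, 5.39, 3.02 and 4.07 FPKM (-2.13), high in the control only. AT1G47395 and AT1G47400, which the annotation does not characterise, were added after their values were seen and stood at 85.9, 2.75, 8.88, 0 and 4.03 FPKM and at 10.4, 0.778, 0.419, 0 and 1.15 FPKM. Both were high in the control only. The regulators PYE (-0.03), BTS (-0.26) and ILR3 (-0.25), NAS1 (0.79) and NAS2 (0.54) of nicotianamine synthesis, NRAMP3 (0.38), NRAMP4 (-0.17) and FRO3 (-0.45) were not called. Of 17 compared iron status genes, 4 were thus higher and 2 lower, beside 2.16% and 1.67% of all genes, with a median of 0.38.

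**Figure D4:**
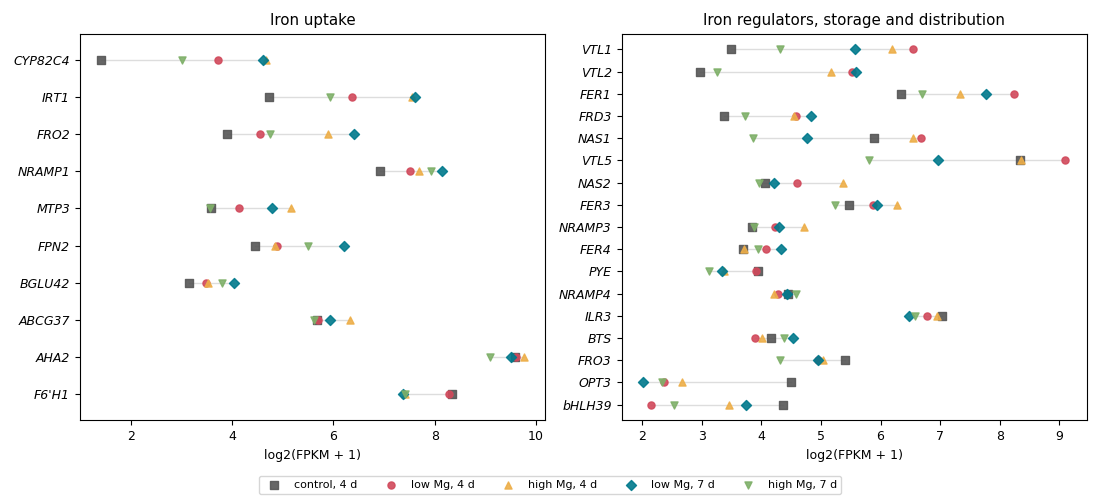
Levels of iron uptake genes (left) and of iron regulators, storage and distribution genes (right), log2(FPKM + 1) on the x axis, 1 symbol per library, ordered by the ratio of low Mg to control at 4 d. The control lies at the left end for VTL1, VTL2, FER1, FRD3, IRT1, CYP82C4 and FRO2, and at the right end for OPT3 and bHLH39.

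Other metals and ions gave single calls. Copper genes had 2 of 10 lower, beside 1.67% of all genes. They were the iron superoxide dismutase FSD1 at 27.6, 6.71, 10.53, 827 and 47.7 FPKM (-1.89) and the transporter ZIP2 at 35.5, 15.3, 22.6, 129.97 and 17.1 FPKM (-1.16). Both were high in 7-d low Mg, and the copper enzymes CSD1 (0.38) and CSD2 (0.20) were not called at 4 d. Zinc genes had ZIP5 lower (-1.06) among 14, beside the same 1.67%, with a median of -0.29. HAK5, the high-affinity potassium transporter, stood at 10.2, 23.9, 184, 9.76 and 88.1 FPKM (1.15), and the low Mg value was small beside both high Mg libraries. CHX17 was lower (-1.07), also one of 17 potassium and sodium genes. Sulfur genes had APR3 higher (1.01) and BGLU30 lower (-1.40) among 15. With sums made equal including AT2G01021, ZIP2 (-0.70), ZIP5 (-0.60) and CHX17 (-0.64) fell short of 2-fold. With a pseudocount of 5, ZIP2 (-0.996), ZIP5 (-0.92), CHX17 (-0.75), HAK5 (0.93), APR3 (0.94) and BGLU30 (-0.89) did.

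Secreted lipid transfer proteins, which carry lipids for cuticle and suberin, had 4 of 6 named members lower, beside 1.67% of all genes. LTP3 stood at 106, 20.7, 33.5, 9.48 and 6.27 FPKM (-2.31), LTP2 at 391, 141, 161, 58.5 and 43.3 FPKM (-1.47), LTP6 at 27.9, 8.78, 23.3, 9.29 and 8.61 FPKM (-1.56) and LTPG2 at 30.5, 13.9, 14.5, 14.0 and 7.39 FPKM (-1.08). The control was the highest library for all 4, as it was for 88.2% of all long coding genes called lower. Over all 51 genes annotated as lipid transfer proteins, a group added after the values were seen, 3 were higher and 7 lower, with a median of 0.02. Suberin genes, 9 compared, had 0 called and a median of -0.09.

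Among larger families, aquaporins (25 compared), Aux/IAA and GH3 genes (16), histones (17), phi glutathione transferases (10) and cysteine-rich receptor kinases (14) had 0 called. With 3.83% of all genes called, 0 is not unusual for families of these sizes. Cytochromes P450 had 6 of 98 higher and 4 lower, and UDP-glycosyl transferases had 3 of 28 higher, beside 2.16% higher and 1.67% lower over all genes. Those 3 were the neighbouring flavonol and stress glycosyl transferases UGT73B1 (1.14), UGT73B2 (1.23) and the related UGT73B4 (1.22). Tau glutathione transferases had GSTU24 (1.87) and GSTU19 (1.11) higher among 20. GSTU19 stood at 50.9, 111, 185, 324 and 389.8 FPKM, with the control lowest. Peptide genes of the CLE, RALF, PSK, CEP and IDA-like groups had 5 of 53 higher and 1 lower.

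Some called genes lay side by side. Counting compared genes in chromosome order, 42 of the 343 higher genes (12.2%) and 24 of the 265 lower genes (9.06%) had a direct neighbour called the same way. Of all genes compared, 2.16% were called higher and 1.67% lower. The share of all genes with such a neighbour was not computed, so these counts describe the calls only. The longest run was 7 genes on chromosome 5, from AT5G52670 to AT5G52790 (TAIR10.1 chr5:21363486-21395016), of which 6 are annotated as copper transport or heavy metal detoxification proteins. AT5G52670 stood at 19.4, 62.1, 41.7, 31.8 and 102.6 FPKM (1.63). AT5G52720 stood at 30.9, 83.3, 12.1, 14.8 and 58.4 FPKM (1.40), and AT5G52710 at 9.55, 34.3, 9.58, 22.8 and 90.2 FPKM (1.74). AT5G52690 (1.91), AT5G52750 (1.14) and AT5G52760 (1.69) were called as well. At 7 d these 6 genes stood lower in low Mg than in high Mg, with log2 ratios from -0.96 to -3.14. They are similar tandem copies among which fragments can be split, and the stretch was chosen for its calls.

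A second run, of 3 genes on chromosome 4, held AT4G19720, AT4G19750 and AT4G19760, annotated as glycosyl hydrolases with a chitinase insertion domain. AT4G19760 stood at 7.93, 107, 27.7, 71.5 and 208 FPKM (3.59), and AT4G19750 at 7.17, 69.03, 22.1, 56.6 and 447 FPKM (3.1001). In both the control was lowest and 7-d high Mg highest. The run AT1G72900, AT1G72920 and TIR (AT1G72930), genes with the receptor domain of plant immunity, stood at 9.06 and 30.2, 2.92 and 8.31, and 4.23 and 11.5 FPKM in control and low Mg, each highest in 4-d low Mg. The last run was AT4G27652, AT4G27654 and AT4G27657, 3 short uncharacterised genes.

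Genes listed at 0 in one library of the pair numbered 55 of the higher and 49 of the lower genes. Those that are coding with at least 500 nt of exon were 11 and 8. RTFL18, a ROTUNDIFOLIA-like peptide, was listed at 74.6 FPKM in 4-d low Mg and at 0 in the other 4 libraries, and LCR43 at 11.9 FPKM and 0 in the other 4. AT3G13240 was listed at 0 in the control only, beside 410, 604, 85.2 and 70.3 FPKM. A listed 0 can be an estimate that failed, and no fold is given for these genes.

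The pair low against 7-d high Mg shares no library with the pair at 4 d, so it allows a look at the same genes elsewhere, against another reference. Of 14798 genes compared on both days, 302 were higher (2.04%) and 378 lower (2.55%) in 7-d low Mg. Of 263 genes higher at 4 d, 42 (16.0%) were higher and 55 (20.9%) lower at 7 d. Of 136 genes lower at 4 d, 28 (20.6%) were higher and 32 lower at 7 d. Genes not called at 4 d were higher in 1.61% and lower in 2.02%. Genes called at 4 d were thus called at 7 d more often than others, in both directions. The groups were not matched for exon length or level, and called genes were shorter, as given above. The cause of the difference was not tested.

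**Figure D5:**
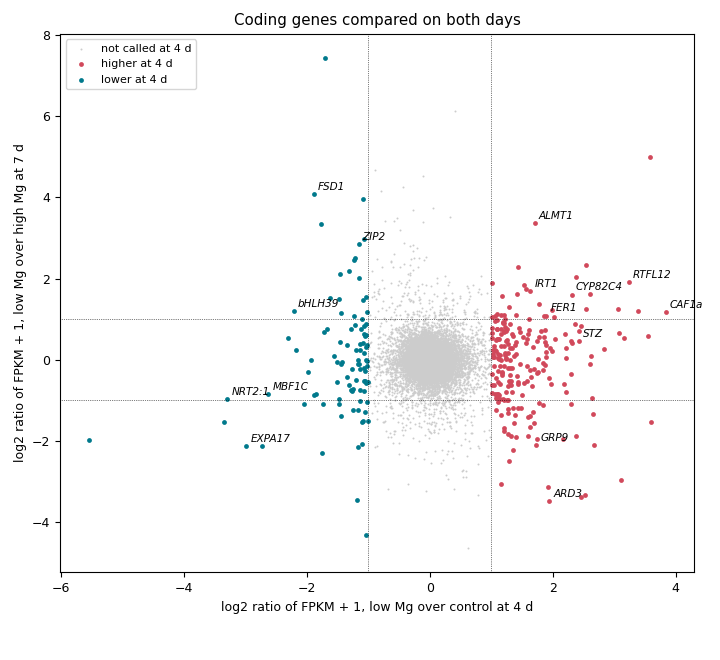
Log2 ratio of low Mg to control at 4 d (x axis) against low to 7-d high Mg (y axis) for coding genes with at least 500 nt of exon, compared on both days and above 0 in both 4-d libraries; each point is 1 gene, red or blue where called at 4 d. Red and blue points lie above and below 0 on the y axis in similar numbers, with ALMT1, IRT1 and RTFL12 in the upper right and FSD1 in the upper left.

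Genes higher in low Mg on both days included IRT1 (1.63 at 4 d, 1.69 at 7 d), CYP82C4 (2.30, 1.61), FRD3 (1.21, 1.104), CAF1a (3.83, 1.17) and RTFL12 (3.23, 1.92). ALMT1, which releases malate from the root tip, stood at 3.64, 14.1, 10.46, 24.2 and 1.46 FPKM (1.70, 3.36). EXT13, an extensin of the cell wall, stood at 28.2, 76.4, 206, 48.3 and 15.1 FPKM (1.41, 1.62), and ABCB15 at 1.804, 7.10, 22.6, 16.7 and 3.93 FPKM (1.53, 1.85). PGIP1 (2.55, 1.24) and the glutaredoxin GRX480 (1.98, 1.23) completed the leading 10. All 10 of these genes were also above the control in 4-d high Mg. They were chosen for a ratio over that same control library, so the high Mg values are no independent support. With a pseudocount of 5 the 4-d ratios of ABCB15 (0.83) and FRD3 (0.96) fell short of 2-fold.

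Genes lower on both days included EXPA17 (-2.99, -2.13) and PIRL8, a leucine-rich repeat protein, at 15.5, 0.616, 6.48, 3.09 and 10.8 FPKM (-3.35, -1.53). ZFP5, a zinc finger protein of root hair initiation, stood at 32.0, 12.8, 9.002, 4.05 and 10.99 FPKM (-1.26, -1.25). GolS1 (-1.11, -2.07), WRKY29 (-1.10, -1.52), G3Pp1 (-2.05, -1.10), EXPA12 (-1.73, -1.09) and CLE5 (-1.01, -1.50) were the others among coding genes with a symbol. With sums made equal including AT2G01021, the 4-d ratios of ZFP5 (-0.80), GolS1 (-0.65), WRKY29 (-0.63) and CLE5 (-0.57) fell short of 2-fold, and with a pseudocount of 5 those of GolS1 (-0.93), EXPA12 (-0.93) and CLE5 (-0.78) did. Opposite signs were seen for ARD3 of the methionine cycle at 2.70, 13.2, 7.37, 2.23 and 35.1 FPKM (1.94, -3.48), GRP9 (1.73, -2.10), CYP71A20 (1.36, -2.23), DIR5 (2.66, -1.33) and AIR1 (1.32, -1.87). FSD1 (-1.89, 4.09), ZIP2 (-1.16, 2.85), CYP82C2 (-1.46, 2.12), UMAMIT35 (-1.23, 2.46), AGD11 (-1.16, 2.01) and bHLH39 (-2.22, 1.21) were lower at 4 d and higher at 7 d. The 4-d calls of ZIP2, UMAMIT35 (-0.78) and AGD11 (-0.73) were lost with sums made equal including AT2G01021, and those of ZIP2, AGD11 (-0.88) and CYP82C2 (-0.96) with a pseudocount of 5. The rapid stress list had 3 of 35 higher and 0 lower at 7 d, with a median of 0.29, and the heat shock list had 0 of 9 higher and 1 lower, with a median of 0.03.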

How the data were processed

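The authors deposited FPKM per TAIR10 locus for 5 root libraries. TopHat2 2.0.8 and Cufflinks 2.1.1, run on TAIR10, are named for day 4 per the submitters' processing notes, which for day 7 name only the build. The sources used here do not give the strand setting or any scaling between libraries. The FPKM unit was read from those notes and from the spacing of low values. Matrix and per-library tables differed in 0 values.

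From these values, log2((a + 1)/(b + 1)) was computed for nuclear loci with 5 FPKM or more in either library, with no further scaling, in Python 3.11.15 and pandas 2.3.3. Calls are 2-fold on that scale. Members, gene lists and groups were chosen with earlier results of these data known. Of 701 list entries, 24 were left out because TAIR10.1 does not pair symbol and locus. Named genes were drawn from the sets that follow, and not every gene of a set is named. The sets are the 15 highest and 15 lowest coding genes with a symbol, exon length of 500 nt or more and values above 0 in both libraries, the 8 highest and lowest of these at 100 FPKM or more, up to 5 called members each way per list, the Mg2+ and iron uptake lists, the leading genes called on both days, runs of 3 or more neighbours, and coding genes listed at 0 in one library. Other genes are marked as added after their values were seen. Library size was taken from the commonest low value of FPKM times exon length in coding genes of 2000 nt or more, read as 1 fragment, which is approximate and covers counting error only. Promoter windows were read from the RefSeq TAIR10.1 genome, whose starts may differ from those the authors used, and 1 promoter that met the rule is not reported here. The ratio and the calls were checked on simulated data. Alternatives were other pseudocounts, filters, scalings, thresholds and gene classes.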

Additional observations from a re-analysis of the deposited data

How the results depend on the processing

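No paired analysis was possible because each group is 1 library, and for the same reason no replicate could be left out. Against 343 higher and 265 lower genes, the higher and lower counts were 859 and 146 with sums of all nuclear genes made equal (TPM), 212 and 155 with a filter of 20 FPKM, 759 and 681 at 1.5-fold and 107 and 86 at 4-fold, and 167 were lower with a pseudocount of 5. TPM moved the split from 56.4% to 85.5% higher. The other alternatives gave 234 to 448 higher and 186 to 372 lower genes. At 7 d, genes higher at 4 d that were higher or lower again were 21 and 24 with the 20 FPKM filter and 22 and 33 with a pseudocount of 5, and for genes lower at 4 d they were 9 and 14, and 13 and 17. Those settings left 134 and 185 higher genes from 4 d to follow, beside 263. The cause of the other moves was not tested. The rapid stress list had 23 to 29 members higher and the heat shock list 9 to 11 lower under 5 alternatives. Of 154 called list or named genes, 0 changed sign, 17 fell short of 2-fold under TPM and 28 with a pseudocount of 5. Called genes named only from a family, an annotation group, a run of neighbours or the threshold's edge were outside this check. Differences within the spread between plants cannot be judged, since that spread was not measured.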
